A study of Mus musculus with 4 samples.

Results

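The 8 genes described here are Yap1 and Wwtr1, which encode the transcriptional coactivators YAP and TAZ, the gene of their DNA-binding partner Tead1, the target genes Cyr61, Ctgf, Ankrd1 and Amotl2, and Axl, a receptor tyrosine kinase gene that is also listed among YAP and TAZ targets. They were chosen by name as 8 of the 17813 gene rows of a single-cell expression table, and are followed across epithelial, endothelial and other cell classes called by marker genes. Apart from Birc5, a target gene that also marks cycling cells, these genes and the other genes of their pathway lists were kept out of the clustering that defined the classes.

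The cells came from digested liver tumour tissue of C57BL/6 mice aged 5 months, in 4 samples: 2 from Miz1F/F mice, which carry floxed Miz1 alleles, and 2 from Miz1Δhep mice, which the labels list as their Miz1_delta_hep knockouts; Miz1 has the gene symbol Zbtb17. Tumours were induced in both genotypes: an intraperitoneal dose of DEN (diethylnitrosamine, a carcinogen), 25 mg/kg in week 2, was followed by carbon tetrachloride (CCl4, a liver toxin, 0.5 ml/kg) each week, so neither group is untreated. The labels do not name the driver of the deletion, nor say how many mice gave each sample. All samples stand in 1 table. Cell barcodes end in 1 of 4 suffixes, which split the cells into barcode sets 1 to 4, but which sample or genotype each set came from is not given. No comparison of genotypes was therefore made and no p-value is given: values stand per barcode set, and sets are not replicates of a group.

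The 4 sets held between 2574 and 11179 cells and between 9093921 and 35033778 UMIs (unique molecular identifiers, which count captured RNA molecules), 24802 cells in all. All levels are the UMIs of a gene per 1000000 UMIs of its class (CPM), within a set unless pooled over sets. Sets shared 373 barcodes, carried by 748 cells (3.02%); results that change without those cells are named where they occur. Clustering gave 16 named classes. Those used most below were hepatocytes (1145 cells), Krt8/Sox9 epithelial cells (783), cholangiocytes (97), endothelial cells (2981), Kupffer cells (2145), monocytes and macrophages (2352) and B cells (6766). A small class of stellate, fibroblast and mesothelial cells (62) had at least 20 cells in set 3 alone, cholangiocytes in sets 3 and 4, and Krt8/Sox9 cells in sets 2, 3 and 4. Median depth was 1543 UMIs per hepatocyte, 6278 per Krt8/Sox9 cell and 1990 per endothelial cell. Zbtb17 was low everywhere, at 4.44 to 14.8 CPM across the sets in hepatocytes, with intervals that overlapped, and checks no label since the sets have none. Afp, a fetal liver and tumour gene, stood at 670.4 CPM over all sets in hepatocytes, 213 in Krt8/Sox9 cells and 24.6 in B cells. The B cell value, 4.72 CPM in set 1 and 49.2 in set 2, serves as background, and its source was not tested.

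Several classes need a remark on identity. Krt8/Sox9 cells held Sox9 (470.1 CPM) and Hnf4a (162), but the cholangiocyte keratin gene Krt19 was at 1.62 and Epcam at 8.25, against 563 and 854 in cholangiocytes, so the class is called by its leading genes and not as bile duct. It also held the hepatocyte product Alb at 8717 CPM, against 56697 in hepatocytes and 2070 in B cells. Cyr61 was itself among the 10 leading genes of the Krt8/Sox9 class, although it was not used to form the class. The small class of stellate, fibroblast and mesothelial cells, called stromal below, held markers of several kinds. Dcn stood at 6560 CPM and the mesothelial gene Msln at 983. Endothelial markers ranged from 109 CPM (Pecam1) to 548 (Kdr), against 476 and 1493 in endothelial cells. The part of endothelial RNA in its levels was not tested. Endothelial cells of different sets fell in different clusters: a cluster led by Cyp26b1, Acer2 and Rspo3 held 721 of the 788 endothelial cells of set 2 and 386 of the 407 of set 3, and clusters led by Cldn5 and Cyp4b1 or by Rab3b and Fam167b held 1093 and 536 of the 1687 of set 4. Set and endothelial cluster thus cannot be told apart in full.

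As background, the Hippo pathway is a kinase cascade that restrains organ size. Its kinases MST1/2 (genes Stk4 and Stk3) act on the kinases LATS1/2, which phosphorylate YAP and TAZ. Phosphorylated YAP and TAZ then stay out of the nucleus. Unphosphorylated YAP and TAZ enter the nucleus and bind TEAD proteins at DNA, since they cannot bind DNA themselves. In the liver the pathway is known for its hold on hepatocyte and bile duct cell identity and on growth. CYR61 and CTGF are secreted matricellular proteins, ANKRD1 is an ankyrin repeat protein, and AMOTL2 is a junction-associated angiomotin that binds YAP and holds it back. YAP and TAZ are controlled largely at the level of the protein, so RNA levels of Yap1 and Wwtr1 do not measure their activity.

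Promoter sequences are shown for the targets whose levels separate the cell classes and for Axl, whose pattern was unlike theirs. Sequences came from RefSeq on GRCm38.p6 and run from 250 bases before to 50 bases after the start of transcription, which was matched for 6 of the 8 genes (Tead1 and Ctgf were not matched). Capitals mark GGAATG, the core of the TEAD binding motif, or CATTCC, the same core on the other strand. The windows lie at chr3:145649936-145650235 (minus strand) for Cyr61, chr19:36119795-36120094 (minus) for Ankrd1, chr9:102717554-102717853 (plus) for Amotl2 and chr7:25788684-25788983 (minus) for Axl.
Cyr61: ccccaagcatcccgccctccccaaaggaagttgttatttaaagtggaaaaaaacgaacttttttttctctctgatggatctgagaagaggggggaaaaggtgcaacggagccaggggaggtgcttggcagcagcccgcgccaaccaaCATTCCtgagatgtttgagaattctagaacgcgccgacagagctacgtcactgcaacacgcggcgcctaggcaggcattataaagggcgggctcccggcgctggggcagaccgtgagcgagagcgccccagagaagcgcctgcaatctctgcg
Ankrd1: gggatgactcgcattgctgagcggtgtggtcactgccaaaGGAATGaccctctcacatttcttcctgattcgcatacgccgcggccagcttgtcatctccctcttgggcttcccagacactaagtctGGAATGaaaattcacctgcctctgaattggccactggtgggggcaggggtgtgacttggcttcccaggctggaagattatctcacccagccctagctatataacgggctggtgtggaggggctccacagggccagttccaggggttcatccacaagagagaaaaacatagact
Amotl2: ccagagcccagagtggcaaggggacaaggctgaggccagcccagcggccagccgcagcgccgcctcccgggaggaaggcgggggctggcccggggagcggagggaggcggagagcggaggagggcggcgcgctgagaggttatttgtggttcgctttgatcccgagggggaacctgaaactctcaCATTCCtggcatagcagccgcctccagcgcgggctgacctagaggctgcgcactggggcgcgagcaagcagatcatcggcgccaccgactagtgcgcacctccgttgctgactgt
Axl: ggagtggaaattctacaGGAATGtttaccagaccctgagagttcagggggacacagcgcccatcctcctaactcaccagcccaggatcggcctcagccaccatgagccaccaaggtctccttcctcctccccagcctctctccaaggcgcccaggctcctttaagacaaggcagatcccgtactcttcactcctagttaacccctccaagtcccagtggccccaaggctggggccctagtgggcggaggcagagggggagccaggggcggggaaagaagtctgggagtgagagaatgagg

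All 6 genes with a sequence held the core in the window, and 14.7% of 32851 promoter windows of this length hold it on either strand. It began 103 bases before the start in Cyr61, 65 in Amotl2, 233 in Axl and 141 in Yap1. Ankrd1 held it at 210 and at 123 bases before the start, and the Wwtr1 windows at 136 and 170 bases before the starts of its 2 entries, which overlap and share 1 match. Neither TGANTCA, the AP-1 motif (7.81% of windows, both strands searched), nor the CArG box, the site of serum response factor (1.63%), was found in these windows. A match is a description of letters and shows no binding.

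By gene position (GRCm38, GENCODE vM21), Yap1 spans chr9:7931999-8004596, Wwtr1 chr3:57455649-57575910, Tead1 chr7:112679318-112906807, Cyr61 (current symbol Ccn1) chr3:145646976-145649981, Ctgf (Ccn2) chr10:24595442-24598683, Ankrd1 chr19:36111961-36120099, Amotl2 chr9:102716672-102733418 and Axl chr7:25757273-25788705. Antisense genes overlap Yap1, Wwtr1, Tead1 and Ctgf, and a microRNA gene lies within Tead1 on the same strand; whether counting used strand is not stated.

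**Figure D1:**
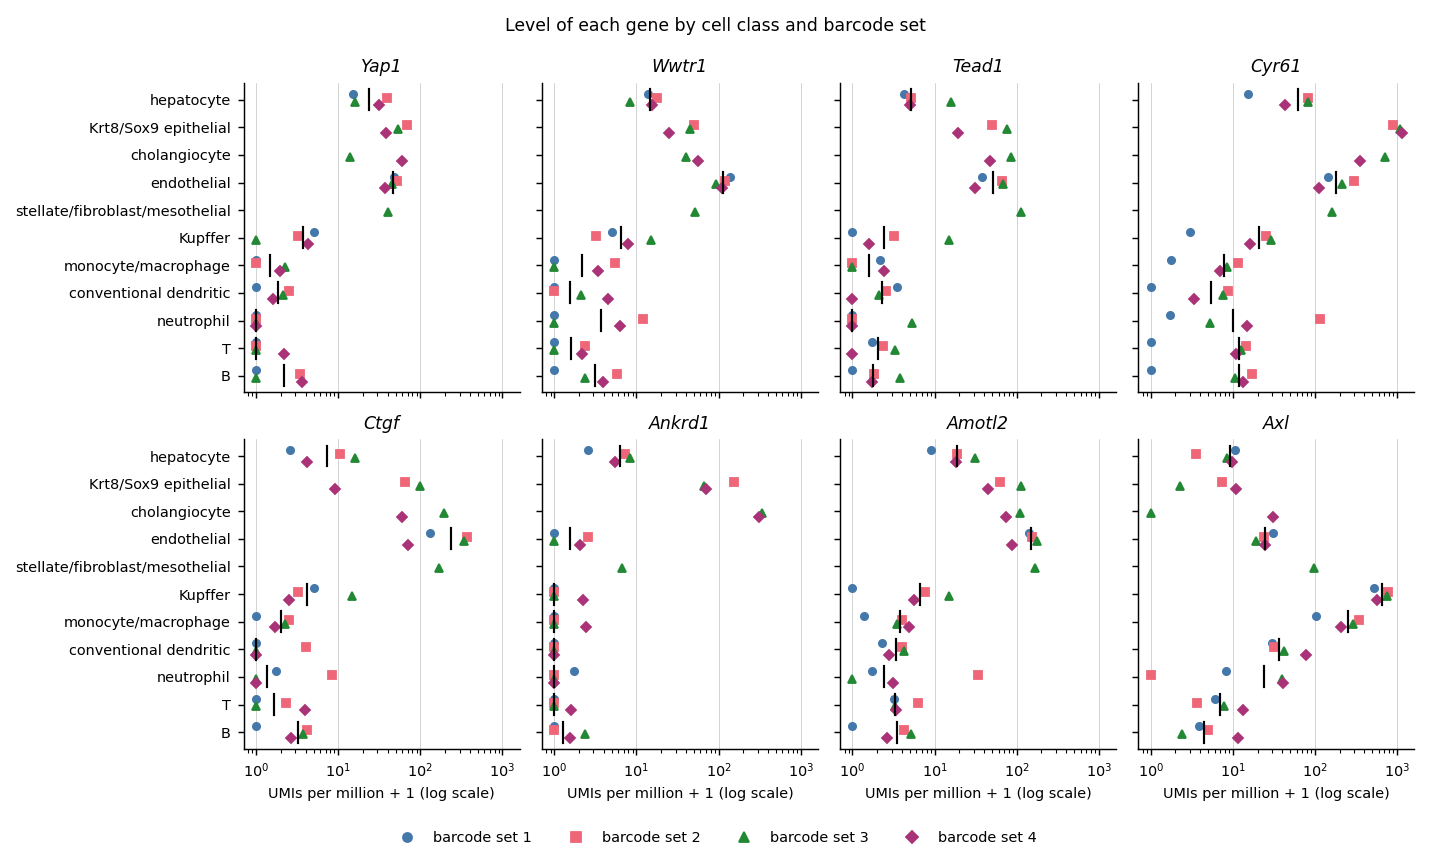
Level of each gene in 11 cell classes, as CPM plus 1 on a log axis; points are barcode sets with at least 20 cells of the class and black bars are medians over sets. Cyr61 reached 901 to 1143 in Krt8/Sox9 cells, while Axl was highest in Kupffer cells at 518 to 780.

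Yap1 RNA was found in epithelium, endothelium and stroma at 12.9 to 68.1 CPM, and was at most 15.5 CPM in any set of the blood-derived classes. In Krt8/Sox9 cells Yap1 stood at 68.1 CPM in set 2, 53.1 in set 3 and 37.5 in set 4. In endothelial cells it stood at 46.1, 51.3, 43.9 and 36.2 CPM in sets 1 to 4, and in hepatocytes at 14.3, 38.7, 14.8 and 30.2 CPM. Ranges of these 3 classes overlapped, and Krt8/Sox9 cells were above endothelial cells in each of the 3 sets that hold both, with intervals that overlapped in each. Stromal cells of set 3 held 39.6 CPM, on 7 UMIs, and cholangiocytes 12.9 (2 UMIs) and 59.6 CPM (14 UMIs) in sets 3 and 4. Kupffer cells did not exceed 4.05 CPM in any set, nor monocytes and macrophages 1.26 CPM.

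Wwtr1 was an endothelial-leaning gene. It was highest in endothelial cells in each of the 4 sets, at 135, 118.8, 91.8 and 109 CPM. Krt8/Sox9 cells held 49.3, 43.7 and 24.2 CPM in sets 2 to 4, and hepatocytes 12.7, 16.7, 7.41 and 14.7 CPM in sets 1 to 4. The endothelial, Krt8/Sox9 and hepatocyte ranges did not overlap. Cholangiocytes (38.7 and 55.4 CPM) and stromal cells (51.0 CPM, on 9 UMIs) lay within or close to the Krt8/Sox9 range. The highest value in Kupffer cells was 13.9 CPM, on 1 UMI.

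The share of Wwtr1 in the summed UMIs of both was then compared between classes; it also depends on how well each gene is captured. It was 32.6% in hepatocytes (exact 95% binomial interval 26.5 to 39.1, 227 UMIs), 42.1% in Krt8/Sox9 cells (37.9 to 46.4, 539 UMIs), 48.9% in cholangiocytes (33.7 to 64.2, 45 UMIs) and 73.9% in endothelial cells (71.5 to 76.1, 1431 UMIs). Sets with at least 20 such UMIs gave 30.2% and 32.7% in hepatocytes, 39.2% to 45.2% in Krt8/Sox9 cells and 67.7% to 75.0% in endothelial cells. The endothelial share was above every epithelial set, and the intervals of endothelial cells over all sets did not reach those of hepatocytes or Krt8/Sox9 cells. Stromal cells gave 62.1% (42.3 to 79.3), on 29 UMIs. These intervals, and all others here, cover counting error only.

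**Figure D2:**
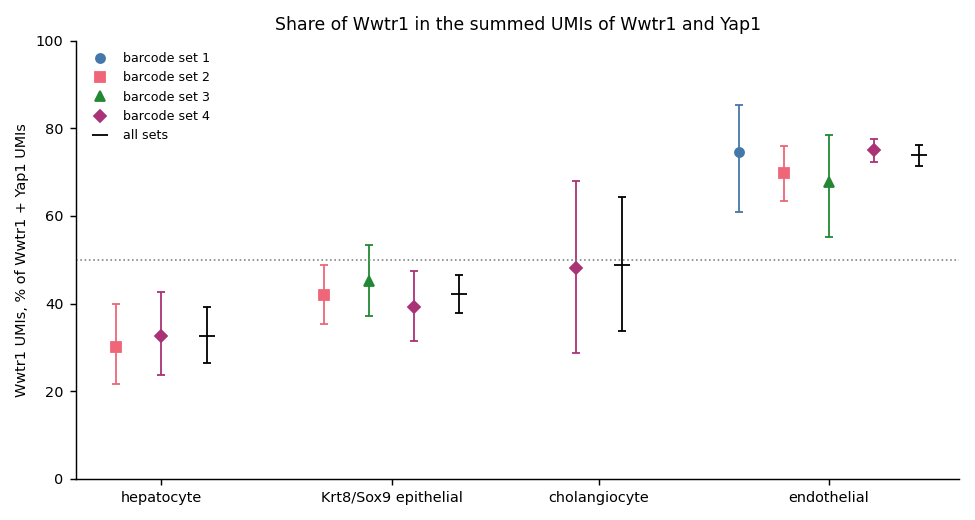
Share of Wwtr1 UMIs in the sum of Wwtr1 and Yap1 UMIs, in percent, by cell class; symbols are barcode sets with at least 20 such UMIs, black bars all sets together, and error bars exact 95% binomial intervals. Endothelial sets lie at 67.7% to 75.0%, above the 50% line, and hepatocyte sets at 30.2% and 32.7%, below it.

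Tead1, the DNA-binding partner, was low in hepatocytes and present in the other non-blood classes. Hepatocytes held 3.18, 4.18, 14.8 and 3.998 CPM in sets 1 to 4; the value of set 3 rests on 2 UMIs. Krt8/Sox9 cells held 48.8, 75.6 and 18.1 CPM in sets 2 to 4, and endothelial cells 36.3, 65.2, 67.8 and 30.2 CPM in sets 1 to 4. Both classes were above hepatocytes in every set, and their own ranges overlapped. Cholangiocytes held 83.8 and 46.8 CPM, and stromal cells of set 3 had the highest Tead1 level of that set at 113 CPM (20 UMIs, 69.2 to 175), with an interval that overlapped that of cholangiocytes (44.6 to 143).

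Among the targets, Cyr61 was highest in Krt8/Sox9 cells. Its level there was 901 CPM in set 2, 1094 in set 3 and 1143 in set 4. Cholangiocytes held 716 and 349 CPM in sets 3 and 4, endothelial cells 145, 295, 214 and 112 CPM in sets 1 to 4, and hepatocytes 14.3, 81.5, 81.5 and 41.8 CPM. Every Krt8/Sox9 set lay above every set of the other classes, and the endothelial range lay above the hepatocyte range. Hepatocytes were themselves uneven: a cluster led by Alb and Serpina3k held 132 CPM in set 2 and 53.3 in set 4, and one led by Fabp1 and Gstm3 held 5.24 and 9.98 CPM in the same sets. The median depth of those clusters was 2360 and 1176 UMIs per cell, and the part of depth in this difference was not tested.

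Ctgf, a close relative of Cyr61 in the CCN family, had another order of classes. Endothelial cells held 129, 372, 339 and 70.1 CPM in sets 1 to 4, the highest class in each set. Krt8/Sox9 cells held 63.3, 98.7 and 8.06 CPM in sets 2 to 4, cholangiocytes 194 and 59.6 CPM in sets 3 and 4, and hepatocytes 1.59, 9.41, 14.8 and 3.11 CPM in sets 1 to 4. Set 4 was the lowest set for Ctgf in Krt8/Sox9 cells, cholangiocytes, endothelial cells and Kupffer cells, and its level in Krt8/Sox9 cells was 12.2 times lower than that of set 3. For Cyr61, set 4 was likewise the lowest set in cholangiocytes (2.05 times below set 3) and endothelial cells (2.64 times below set 2), but in Krt8/Sox9 cells it was the highest, 1.27 times above the lowest.

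Ankrd1 was high in cholangiocytes and Krt8/Sox9 cells and did not exceed 7.41 CPM in any set of the other named classes. Cholangiocytes held 342 and 307 CPM in sets 3 and 4, on 53 and 72 UMIs. Krt8/Sox9 cells held 151, 65.6 and 70.2 CPM in sets 2 to 4, and hepatocytes 1.59 to 7.41 CPM, the top value on 1 UMI. Endothelial cells, the class with the most Ctgf, held 10 Ankrd1 UMIs in all and did not exceed 1.55 CPM. Amotl2 followed Ctgf more than Ankrd1. Endothelial cells held 142, 151, 174 and 87.3 CPM, stromal cells of set 3 164 CPM, cholangiocytes 109.6 and 72.4 CPM, Krt8/Sox9 cells 61.7, 113 and 43.5 CPM, and hepatocytes 7.95 to 29.6 CPM. In set 3 the intervals of stromal cells (110.0 to 236) and endothelial cells (139 to 214) overlapped, so their order there is not resolved.

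Axl had an order of its own and marked macrophages. Kupffer cells, the resident macrophages of the liver, held 518, 780, 751 and 572 CPM in sets 1 to 4, and monocytes and macrophages 101, 341, 291 and 209 CPM. The 2 ranges did not overlap, and Kupffer cells were highest in each set. Within the monocyte and macrophage class a cluster led by Gpnmb and Trem2 held 247 to 511 CPM across sets, and a cluster led by Chil3 and Ccr2 held 25.4 to 140 CPM. Stromal cells of set 3 held 96.3 CPM, conventional dendritic cells 29.1 to 77.3 CPM, endothelial cells 18.0 to 29.7 CPM and Krt8/Sox9 cells 1.25 to 10.1 CPM.

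Class pairs were then compared within each set as the log2 ratio of CPM plus 10, where both classes together averaged 20 CPM or more, and a gene was called when it was at least 2-fold higher, or lower, in every set with 20 cells of both classes. A gene can pass this filter through its level in 1 class alone, which favours a call, here and among all genes tested. Krt8/Sox9 cells had higher Cyr61, Ankrd1 and Tead1 than hepatocytes. In this comparison 3 of the 7 genes that passed the filter were called higher and none lower, and 6.38% of the 5207 genes tested were called higher and 4.88% lower. Log2 ratios were 3.32, 3.59 and 4.48 for Cyr61 across the 3 sets (median 3.59), 2.12 to 3.31 for Ankrd1 (median 2.47) and 1.01 to 2.05 for Tead1 (median 1.79). Ankrd1 and Tead1, at most 7.41 and 14.8 CPM in hepatocytes, passed the filter through Krt8/Sox9 cells. All 7 genes were above 0 in every set, as were 49.9% of all genes tested; the median was 1.79 over the 7 and 0.29 over all genes. Ctgf (median 1.92), Amotl2 (1.37), Wwtr1 (1.15) and Yap1 (0.68) were not called. The count was 6 without set 4, with Ctgf, Amotl2 and Wwtr1 added. With fewer sets the call is easier to reach for any gene, and the share of all genes without set 4 was not computed. The Tead1 call, at 1.01 in set 4, was lost with a pseudocount of 50 CPM, with the median of all genes set to 0, in the lowest immediate early tertile and without cells of shared barcodes.

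**Figure D3:**
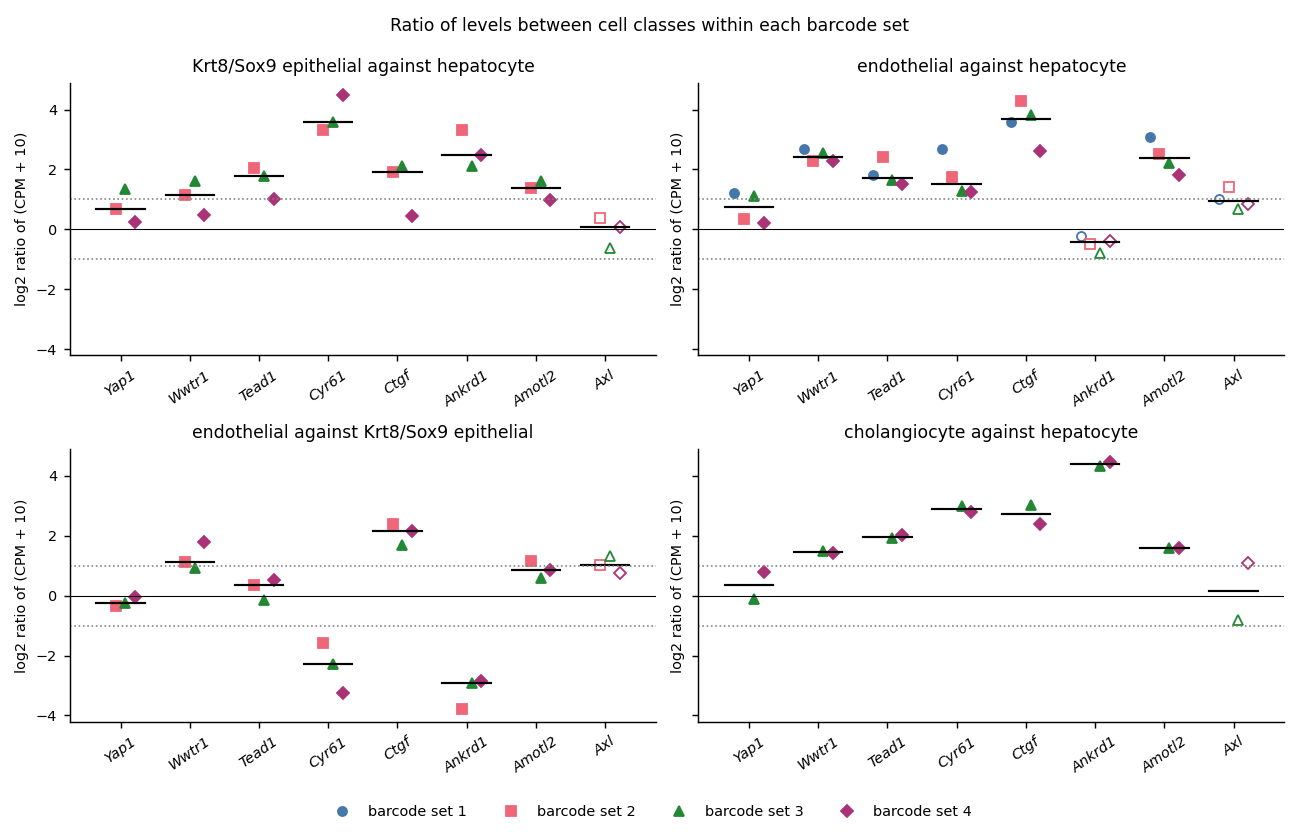
Log2 ratio of levels (CPM plus 10) between cell classes for each gene; points are barcode sets, black bars medians, open symbols genes under the filter of 20 CPM, and dotted lines mark 2-fold. Between endothelial and Krt8/Sox9 cells, Ctgf lies above the upper line in all 3 sets, and Cyr61 and Ankrd1 lie below the lower line.

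Endothelial cells exceeded hepatocytes in most of the same genes. The comparison called 5 of the 6 genes that passed the filter higher, where 23% of 5987 genes were called higher and 10.1% lower. None of the 6 was lower. Tead1, Ctgf, Wwtr1 and Amotl2 had hepatocyte medians of 4.09, 6.26, 13.7 and 17.6 CPM. They thus passed the filter through endothelial cells, so their calls were favoured by the rule. Median log2 ratios over 4 sets were 3.70 for Ctgf (2.61 to 4.30), 2.41 for Wwtr1 (2.27 to 2.67), 2.37 for Amotl2 (1.83 to 3.08), 1.73 for Tead1 (1.52 to 2.41) and 1.51 for Cyr61 (1.24 to 2.67). Yap1 was above 0 in every set (median 0.73) without reaching the call, and the median over all genes was 0.67. The count fell to 3 when that median was set to 0 (Cyr61 0.88, Tead1 1.02) or with a pseudocount of 50 CPM, which ended both calls. The Cyr61 call was also lost at a finer clustering (1.12), with pathway genes clustered (1.27) and with at least 500 genes per cell (1.03).

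Between endothelial and Krt8/Sox9 cells the targets did not all differ in one direction. Ctgf was called higher in endothelial cells (median log2 ratio 2.15, 1.68 to 2.38 over 3 sets), and Cyr61 (-2.30, -3.24 to -1.58) and Ankrd1 (-2.92, -3.80 to -2.86) were called lower. These are 1 and 2 of 7 genes, beside 16% of 6438 genes called higher and 9.47% called lower, so the count of higher genes is no more than the share over all genes. Wwtr1 lay at 0.92 to 1.79 and was called without set 3 or without cells of shared barcodes, which brings the count of higher genes to 2. The share of all genes was not recomputed for those settings. Tead1 (0.36), Amotl2 (0.86) and Yap1 (-0.23) stayed under 2-fold in at least 1 set.

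Cholangiocytes, with 32 and 49 cells in sets 3 and 4, were added as a pair after levels had been seen. Against hepatocytes 6 of 7 genes were called higher, beside 20% of 6007 genes (7.87% lower), with median log2 ratios of 4.40 for Ankrd1, 2.89 for Cyr61, 2.72 for Ctgf, 1.97 for Tead1, 1.59 for Amotl2 and 1.45 for Wwtr1. Hepatocytes of set 3 were 51 cells, in which a count of 0 allows up to 22.2 CPM. Their Ankrd1 and Wwtr1 (7.41 CPM each) and Ctgf and Tead1 (14.8 CPM each) lay under that limit. These genes passed the filter through cholangiocytes. A pseudocount of 50 CPM left 3 calls and ended those of Tead1 (0.94), Amotl2 (0.93) and Wwtr1 (0.67). Against Krt8/Sox9 cells Ankrd1 was called higher (2.10), beside 7.7% of 6308 genes (4.44% lower); Ctgf (0.90 and 1.95) joined it without cells of shared barcodes. Between Kupffer cells and monocytes and macrophages, Axl, the single gene of the 8 that passed the filter, was called higher (median 1.37, 1.17 to 2.25), beside 3.82% of 5262 genes (2.11% lower). That call was lost at a finer clustering, where the median was 1.15.

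The other genes of the pathway are described by lists. Of 22 Hippo kinases and adaptors in the table, 12 passed the filter between endothelial cells and hepatocytes and 8 were called higher (23% of all genes were), with a list median of 2.33 beside 0.67 over all genes. Mob1a, a LATS cofactor, stood at 153 CPM in endothelial cells and 32.0 in hepatocytes, and Map4k4, a kinase that can act on LATS, at 230.1 and 20.3 CPM. Taok3 and Limd1 were not called in that pair. Between Krt8/Sox9 cells and hepatocytes 1 of 11 was called higher, a share near the 6.38% of all genes; it was the atypical cadherin gene Fat1 (median log2 ratio 2.32, singled out after its value was seen). Between endothelial and Krt8/Sox9 cells 8 of 19 were called higher, beside 16% of all genes, and 2 lower, near the 9.47% of all genes. The angiomotin gene Amotl1, also singled out after its value was seen, had a median log2 ratio of 5.16 there and of 4.87 against hepatocytes (350.4 against 2.10 CPM).

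Among 19 further YAP and TAZ target genes in the table, 7 passed the filter between Krt8/Sox9 cells and hepatocytes, of which 4 were called higher and 1 lower, beside 6.38% and 4.88% of all genes. Anxa3 (86.3 against 10.2 CPM) and Gadd45a (56.8 against 18.3 CPM) were among the higher genes, and Birc5, which also marks dividing cells, was the lower one. Crim1 (median log2 ratio 0.48) and Asap1 (0.39) were not called there. Between endothelial cells and hepatocytes 4 of 7 were called higher, beside 23% of all genes, including Crim1 (311 against 13.3 CPM), Anxa3 (median log2 ratio 3.09) and Asap1 (128 against 16.8 CPM). Of the TEAD family and its VGLL cofactors, Tead2 was called higher in Krt8/Sox9 cells than in hepatocytes (49.2 against 3.11 CPM), and Vgll4, a TEAD corepressor, was highest in NK cells at 233 CPM. Vgll3 and Tead3 were highest in stromal cells of set 3, at 96.3 and 45.3 CPM. Of the remaining CCN genes, Wisp1 was the highest in mean level and was found in endothelial cells at 49.9 CPM; Wisp2 and Nov did not pass the filter.

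For the TAM receptor family, to which Axl belongs, the receptors and their ligands were read together. Mertk followed Axl to Kupffer cells (285 CPM), but also reached 121 CPM in endothelial cells, where Axl was 23.6. Mertk was called higher in Kupffer cells than in monocytes and macrophages, 1 of 3 genes of this list that passed the filter, beside 3.82% of all genes. Tyro3 did not exceed 17.0 CPM in any class. Gas6, a ligand of all TAM receptors, was highest in cholangiocytes (1377 CPM) and stromal cells (1336 CPM), and Pros1, the other ligand, in endothelial cells (279 CPM). Gas6, Pros1 and Mertk, the 3 genes of this list that passed the filter, were all called higher in endothelial cells than in hepatocytes, beside 23% of all genes.

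Cyr61 is also an immediate early gene, so 18 genes of that response (among them Fos, Junb, Jund and Dusp1) were summed beside it. Their summed level was 20243 CPM in Krt8/Sox9 cells (16153 to 20679 over sets), 9621 in cholangiocytes, 5343 in endothelial cells and 2322 in hepatocytes, and 16248 in Kupffer cells, where Cyr61 was at most 27.8 CPM. Between Krt8/Sox9 cells and hepatocytes 14 of 17 immediate early genes were called higher (median 2.70) and 2 of 12 heat shock genes (median 0.91), beside 6.38% of all genes and a median of 0.29. Unlike the pathway lists, these 2 lists were not kept out of the clustering that formed the classes, so their counts are a description only. Fos stood at 3441 CPM in Krt8/Sox9 cells and 348 in hepatocytes of the same sets.

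Krt8/Sox9 cells of each set were split into tertiles by that sum. Cyr61 went from 339 to 821 to 1466 CPM from the lowest to the highest tertile in set 2, from 527 to 1131 to 1628 in set 3, and from 570 to 1231 to 1620 in set 4. The summed level itself went from 6729 to 25637, from 8817 to 32602 and from 10474 to 30845 CPM. Cyr61 and the immediate early genes thus moved together in all 3 sets, with median depths of the tertiles between 4111 and 12149 UMIs and no order in depth shared by the sets. Ctgf was lowest in the lowest tertile of each set (43.6, 88.2 and 3.76 CPM) but was not highest in the top tertile of each. Wwtr1 was highest in the lowest tertile of each set (53.6, 52.1 and 28.8 CPM), and was lowest in the top tertile in set 2 alone. Tead1 was higher in the top than in the lowest tertile of each set (57.5 against 26.8, 88.6 against 56.15 and 27.7 against 17.5 CPM). Tertile intervals of Ctgf, Wwtr1 and Tead1 overlapped in each set, and the lowest Ctgf value, in set 4, rests on 3 UMIs. Yap1 and Amotl2 showed no order shared by the 3 sets. Ankrd1 went from 48.6 to 110.1 to 277 CPM in set 2, and was highest in the lowest tertile in sets 3 (126, 27.6 and 51.5) and 4 (98.9, 62.0 and 50.4). The sum is a continuous score: 60, 67 and 58 cells of the 3 sets, 23.0% to 25.8%, lay within 10% of a cut between tertiles.

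**Figure D4:**
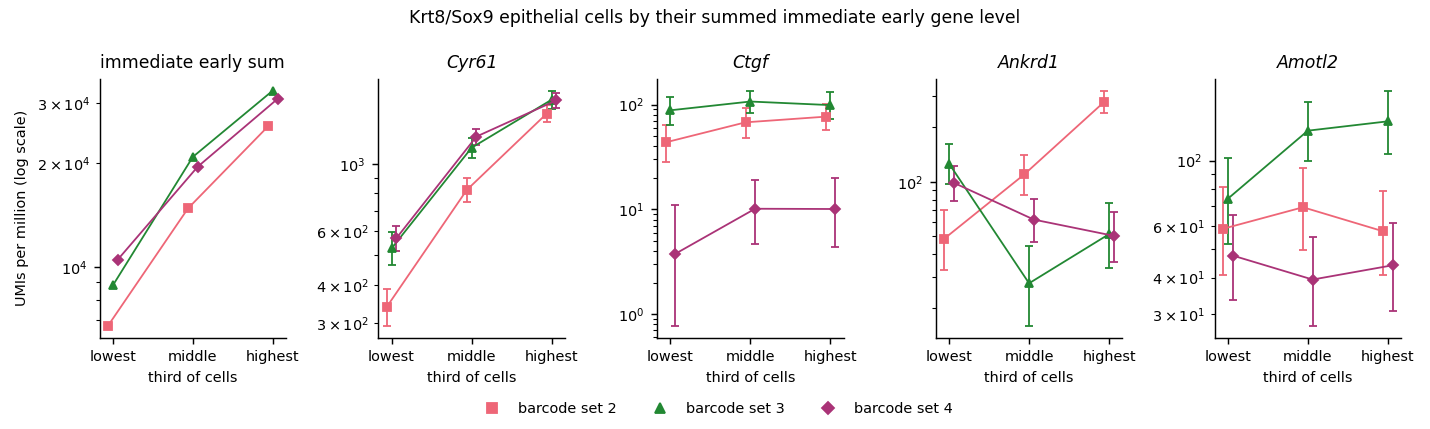
Summed level of 18 immediate early genes, and levels of Cyr61, Ctgf, Ankrd1 and Amotl2, in CPM on log axes, in Krt8/Sox9 cells split within each barcode set by that sum; error bars are exact 95% Poisson intervals. Cyr61 rises with the sum in all 3 sets (339 to 1466 in set 2), and Ankrd1 does so in set 2 alone.

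In the lowest tertile, Cyr61 was at 339 to 570 CPM and was called higher than in hepatocytes, but the immediate early sum of that tertile, 6729 to 10474 CPM, was also above that of hepatocytes (1918 to 2792 CPM). Against that tertile, endothelial cells no longer had a call for lower Cyr61 (median log2 ratio -1.27), while Ankrd1 kept its call. The part of the immediate early response in the level of Cyr61 was not tested.

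Shares of cells were compared after each cell was thinned to 1000 UMIs, which left out 401 hepatocytes, 73 Krt8/Sox9 cells, 743 endothelial cells and 3026 B cells. Cyr61 was seen in 50% of Krt8/Sox9 cells (79.4% before thinning), 39.4% of cholangiocytes, 12.7% of endothelial cells and 3.23% of hepatocytes, against 0.856% of B cells, which serve as background (median depths 6278, 2758, 1990, 1543 and 1170 UMIs). Ankrd1 was seen in 23.9% of cholangiocytes (14.6 to 35.5) and 4.51% of Krt8/Sox9 cells (3.10 to 6.30), beside 0.0802% of B cells. Wwtr1 was seen in 9.96% and Ctgf in 11.4% of endothelial cells, beside 0.241% and 0.187% of B cells. Axl was seen in 46.1% of Kupffer cells and 16.3% of monocytes and macrophages, beside 1.04% of B cells and 1.08% of hepatocytes, so the hepatocyte share of Axl is at background. Of the 4 targets Cyr61, Ctgf, Ankrd1 and Amotl2, exactly 2 were seen together in 79 of 710 Krt8/Sox9 cells (11.1%) and 98 of 2238 endothelial cells (4.38%), and 3 in 4 and 8 of them; no B cell of 3740 held 2, which allows a share of up to 0.0802%.

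Endothelial cells were clustered again on their own, without the pathway genes, to see how far Ctgf varied among them; this was added after the levels had been seen. Subclusters are named by leading genes, and those with 2 or more markers of other classes among their 10 leading genes are given apart. Ctgf was itself among the 10 leading genes of the first one below, although it was not used to form it. Within set 2, Ctgf stood at 447 CPM (403 to 494) in 587 cells led by Btnl9, Cyp26b1 and Acer2, at 71.6 CPM (30.9 to 141) in 48 cells led by Rspo3, Wnt9b and Thbd, and at 46.7 CPM (5.65 to 169) in 24 cells led by Mgp and Gja5. Within set 3 the first 2 of these held 852 (561 to 1240) and 104 CPM (33.9 to 244), in 21 and 27 cells. Most of set 3, 312 of its 407 endothelial cells, lay in the subcluster led by Sparcl1 with haemoglobin genes, at 398 CPM (332 to 473). Within set 4, cells led by Kcnj8 and Cyp4b1 held 127 CPM (113 to 142), cells led by Apln and Angptl4 34.0 CPM (27.0 to 42.3), and cells led by Mgp and Gja5 43.7 CPM (18.9 to 86.1). Cycling cells led by Ube2c and Top2a, found in set 4, held 51.3 CPM (36.2 to 70.8). Among these subclusters, the one named first in each set was the one with the highest Ctgf, and in set 4 it was a different one. Its Ctgf interval did not reach those of the others. Subclusters with markers of other classes and at least 20 cells overlapped that interval in set 2. In set 3 the one led by Sparcl1 did not, and in set 4 some did and others did not. In set 2, Ctgf was 643 CPM (439.9 to 908) in 24 cells with B cell genes. It was 342 CPM (177 to 598) in 32 cells led by Sparcl1 that also held haemoglobin genes. In 21 cells led by S100a8 and S100a9 it was 228 CPM (114 to 408). In set 4, Ctgf was 99.5 CPM (62.3 to 151) in 34 cells with monocyte genes. It was 63.3 CPM (30.4 to 116.5) in 30 cells led by S100a8 and S100a9.

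Wwtr1 did not share that spread. The 3 subclusters of set 2 held 125, 170.0 and 117 CPM of Wwtr1, and the first 3 of set 4 held 119.8, 101 and 153 CPM, each in the order given for Ctgf, and cycling cells 117 CPM, with overlapping intervals in each set. Cyr61 was 305, 215 and 280.0 CPM in the 3 subclusters of set 2, also with overlapping intervals. In set 4 it was 142 (127 to 158), 103 (90.4 to 117) and 158 CPM (106 to 227), and 101 CPM (79.4 to 127) in cycling cells, so the first interval did not reach the second. Values within 1 set rest on that barcode set alone, and the largest subcluster was drawn mostly from set 2.

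**Figure D5:**
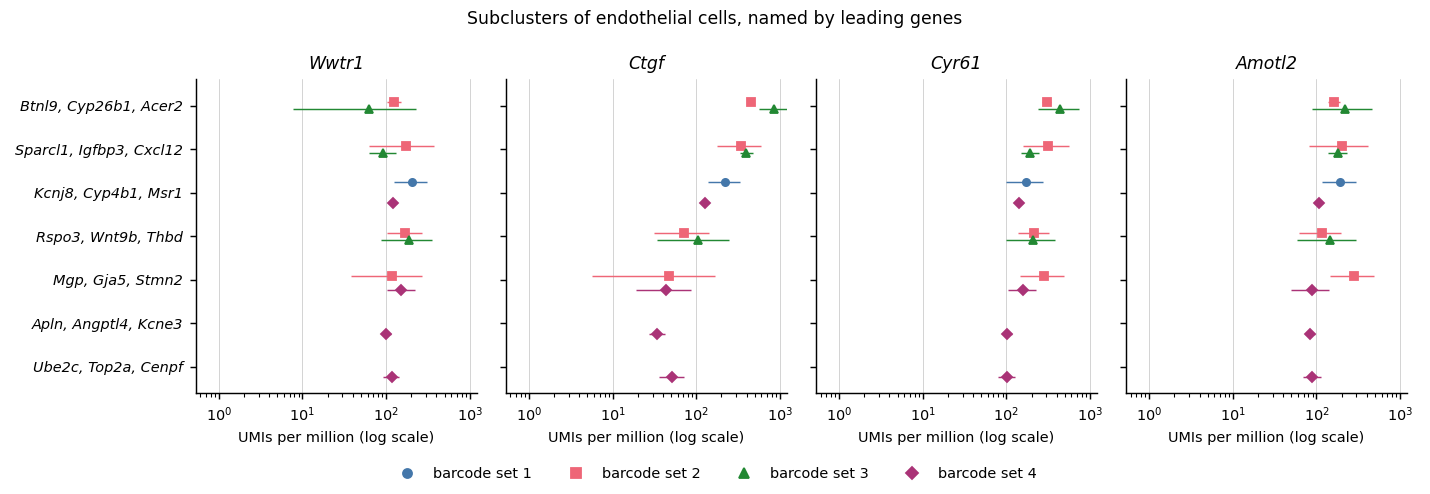
Levels of Wwtr1, Ctgf, Cyr61 and Amotl2 in CPM (log axis) in endothelial subclusters, named by leading genes; symbols are barcode sets with at least 20 cells and bars exact 95% Poisson intervals. In set 2, Ctgf is 447 in cells led by Btnl9 and 71.6 in cells led by Rspo3, while Wwtr1 is 125 and 170.0.

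For each gene the nearest patterns among 10500 genes were named by the Pearson correlation of log2(CPM plus 10) over the 16 classes. The points share barcode sets and depth, so the values are a description. Amotl2 and Ctgf were among each other's nearest 3 genes (r = 0.988), and Amotl2 was among those of Tead1 (0.979), with Ptpn14, which encodes a phosphatase that binds YAP, first (0.990). The nearest genes were Tjp1, a tight junction gene, for Wwtr1 (0.993), Rbfox2 for Yap1 (0.980), Trip6 for Cyr61 (0.964), Maged2 for Ctgf (0.990), Mtcl1 for Ankrd1 (0.990) and Pla2g4a for Axl (0.960), followed for Axl by Csf1r, the receptor of a macrophage growth factor (0.953). Axl correlated with the other 7 genes at -0.140 to 0.109, and Ankrd1 with the remaining 6 at 0.559 (Wwtr1) to 0.802 (Cyr61). All other pairs lay between 0.869 and 0.988.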

How the data were processed

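Per the labels' protocols, liver was digested and cells were run on a 10x Genomics Chromium controller with the Single Cell 3' v2 kit; CASAVA 1.8, Cell Ranger, Seurat and the mm10 build are named per the submitters' processing notes. Filters and other versions: not given in the sources used here. Values deposited by the authors are on a natural log scale, ln(1 + 10000 × UMIs of the gene / UMIs of the cell), read from the values: 100% were whole multiples of 1 UMI within 0.001, so UMIs were recovered. No cell was removed and no doublet caller was run.

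Cells were clustered with scanpy 1.11.5 and igraph 0.11.9 (Python 3.11.15) on 2000 variable genes, 30 principal components and 15 neighbours, with Leiden resolution 1.0, giving 26 clusters; 59 pathway genes were left out. Clusters were named from marker lists by their mean log2 fold (at least 1.5) and their 10 leading genes. An unnamed cluster (391 cells) joined no comparison. Sums of UMIs per class and set gave CPM, with exact Poisson (levels) or binomial (shares) 95% intervals. The pair rule was tested on simulated data. Depth limits low values: 1 UMI is 13.9 CPM in Kupffer cells of set 3.

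The genes, lists and markers were chosen with earlier results of these data known. Named genes are the 8, up to 4 of each list by mean level and the 3 nearest patterns per gene, of which a part is printed. Planned comparisons of vascular with sinusoidal endothelium and of stellate with endothelial cells could not be run, since no such clusters or sets were found. Alternatives were the pseudocount, the filter, clustering, cell weights, depth, scaling and leaving out sets.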

Additional observations from a re-analysis of the deposited data

Results flagged for a closer look

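A cluster of 391 cells with markers of both Kupffer and endothelial cells stayed unnamed and entered no comparison, and 7 of the 8 genes were found there above the limit that a count of 0 allows (2.40 CPM). Yap1 stood at 32.1 CPM, Wwtr1 at 58.5, Tead1 at 29.7, Cyr61 at 122.6, Ctgf at 93.7, Amotl2 at 79.3 and Axl at 326 CPM. Axl is thus found beside Wwtr1 and Ctgf in this cluster, at a level between those of Kupffer cells and endothelial cells; whether single droplets held cells of both kinds was not tested. Ctgf stood at 246 CPM in set 2 and 58.7 CPM in set 4 there.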

How the results depend on the processing

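Of 472 recomputed log2 ratios, 426 kept their direction and call, 22 lost the call, 18 gained it, 6 not called changed sign and no called ratio reversed. Part of this tally was fixed by the rules. For a gene that passes, the filter cannot change the ratio or call (35 without a filter and 11 at 100 CPM, all the same). Leaving out a set cannot end a call while the gene passes the filter. Of 174 recomputed counts of called genes, 154 stayed within 1.5 times. Of 528 recomputed levels, 407 moved by no more than 0.5 of the width of the exact Poisson interval of their UMIs pooled over sets. The count of genes higher in Krt8/Sox9 cells than in hepatocytes (3) was 5 by the mean over cells or with a pseudocount of 1 CPM, 1 at a filter of 100 CPM, and 3 to 6 when a set was left out. The count higher in endothelial cells than in hepatocytes (5) was 3 with a pseudocount of 50 CPM or with the median of all genes set to 0, and 2 at the filter of 100 CPM. Between endothelial and Krt8/Sox9 cells the count higher (1) was 2 by the mean over cells, with a pseudocount of 1 CPM, with at least 500 genes per cell, without the tenth of cells with most UMIs and without shared barcodes, and 1 to 2 when a set was left out. The count lower there (2) was 1 at the filter of 100 CPM and in the lowest immediate early tertile. The count between Kupffer cells and monocytes and macrophages (1) was 0 at Leiden resolution 2.0. The count higher in cholangiocytes than in hepatocytes (6) was 3 with a pseudocount of 50 CPM and 2 at the filter of 100 CPM, and against Krt8/Sox9 cells (1) it was 2 in the lowest tertile or without shared barcodes. At the filter of 100 CPM fewer genes were tested. Otherwise the cause was not tested. The share of all genes called was not recomputed for any of these settings, so the recounts have no background beside them. The tertile, shared barcode and most-UMI alternatives and the cholangiocyte pairs were chosen after seeing the data; the cholangiocyte pairs gave no value at resolution 0.5 or without set 3 or 4. No paired analysis was possible because the columns of the table carry no sample or replicate number.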

Other observations

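Neutrophils of set 2 held Cyr61 at 114 CPM on 31 UMIs, against 0.727 to 14.01 CPM of Cyr61 in neutrophils of the other sets. Few cells carry this value: 17 of 1331 neutrophils over all sets held a Cyr61 UMI (1.28%), and 5 of 712 did after thinning (0.702%). In set 2 their median depth was 555.5 UMIs per cell, the lowest of the 4 sets. Of the 12 heat shock genes, the summed level was 7928 CPM in Krt8/Sox9 cells and 4048 CPM in hepatocytes.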
